A study of Mus musculus with 6 samples.

Results

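The genes described here are interferon-stimulated genes and genes of antigen presentation by major histocompatibility complex (MHC) class I, in cells that lack Edf1. They are a list of 38 gene symbols. Of these, 36 have a row in the deposited table of 22851 gene symbols, and Mx1 and Mx2 were not analysed here. RNA was sequenced from radial glial cells, the neural stem cells of the ventricle wall, taken from the brains of C57BL/6J mice at postnatal days 0 to 3. The cells were kept in medium with serum and then turned into multiciliated ependymal cells by 6 days without serum, so every library comes from differentiated cultures. The groups were wild type (WT) and Edf1 knockout (genotype label Edf1 KO, mice made with CRISPR/Cas9), with 3 biological replicates each. The labels do not give the edited allele, and do not say whether mice were pooled for a culture.

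Interferons are secreted proteins that warn cells of viruses. They bind receptors on the cell surface, and JAK kinases then activate STAT proteins, among them STAT2, which join IRF9 and bind interferon-stimulated response elements (ISREs) in DNA. The genes switched on in this way encode sensors of viral RNA, proteins that block viral replication, and the machinery that cuts proteins into peptides, carries them into the endoplasmic reticulum and loads them on MHC class I for display at the cell surface. Many of these genes have a basal level without infection, in microglia and astrocytes among other brain cells.

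More of these genes were higher than lower in the knockout, by small amounts. Of the 35 genes with enough counts to be tested, 19 were higher in the knockout and 1, Oasl1, was lower, with 0.05 as the limit on the adjusted p-value of edgeR's quasi-likelihood test between genotypes. Over all 14243 tested genes, 12.7% were higher and 14.2% were lower, and 26.9% changed in either direction. The 19 genes rose between 1.15-fold (Ifit2) and 1.60-fold (Stat2), with a median of 1.36-fold, and none reached 2-fold. The median log2 fold change (knockout over WT, also called log2 difference below) of the 35 genes was 0.26, against 0.0029 over all tested genes. Every knockout library was above every WT library for 23 of the 35 genes, against 21.2% of all tested genes, and every one was below for 1 (Oasl1), against 22.1%. Oas2 had 2 to 13 counts per library and was not tested, and the other 35 had at least 17 counts in every library.

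**Figure D1:**
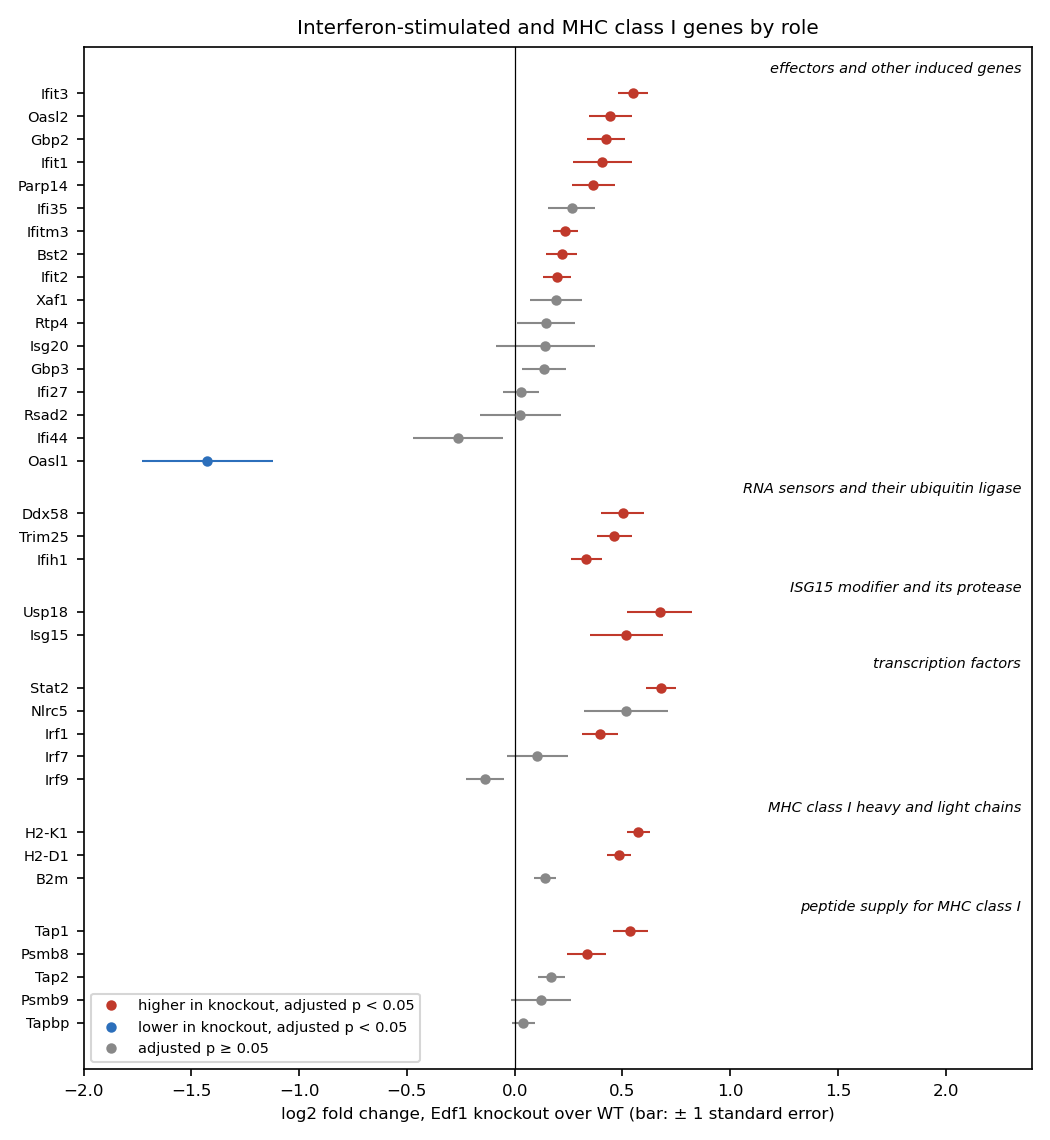
Log2 fold change of each tested gene in the Edf1 knockout over WT (x axis) with its standard error (bar), grouped by role, from 3 libraries per genotype. The 19 genes in red lie between 0.20 and 0.68, and Oasl1 in blue lies at -1.43.

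The libraries held 13071766 to 28087006 counts. Edf1 had 1105 to 2193 counts in WT and 160 to 373 in the knockout, in the direction of the labels in all 6 libraries. All 14 ependymal markers were detected in both genotypes and all were lower in the knockout, where 14.2% of all tested genes were lower. Their summed level was 2120 to 2299 CPM (counts per 1000000 counts) in WT and 1201 to 1294 CPM in the knockout. WT replicate 2, which had the fewest counts, stood apart from the other WT libraries on the second principal component (16.1% of the variance), and it had the lowest CPM of all 6 libraries for 14 of the 35 genes, 12 of them genes called higher. Without it, 20 of the 35 genes were called higher and the median log2 fold change was 0.25. Because whole cultures were sequenced, fewer cells of a type and less RNA per cell cannot be told apart.

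Markers of other cell types were detected, and those of microglia and of fibroblast, mural and endothelial cells differed most often between genotypes. Of 23 tested microglial markers, 20 were lower in the knockout and none was higher, and the summed level of the 24 markers was 4051 to 4212 CPM in WT and 2635 to 2720 CPM in the knockout. Of 11 tested fibroblast, mural and endothelial markers, 9 were higher and 1 lower, with summed levels of 906 to 959 CPM for the 17 markers in WT and 1185 to 1308 CPM in the knockout. The endothelial markers Pecam1, Cdh5, Cldn5 and Tek were too low to test. Of 15 radial glial and astrocyte markers, 3 were higher and 3 lower, and of 4 tested border macrophage markers 1 was higher and 1 lower. Of 7 tested oligodendrocyte lineage markers, 1 was higher and 1 lower, and of 7 tested neuronal markers 2 were lower. The share that changed was near the 26.9% of all tested genes in the oligodendrocyte lineage and neuronal lists. It was above that in the radial glial and astrocyte list and among the 4 border macrophage markers. Over all tested genes, 12.7% were higher and 14.2% were lower. The 11 markers of lymphocytes and dendritic cells had at most 7 counts in a library, and Cd3d, Cd3e, Cd3g and Xcr1 had 0 in every library. The part of these marker differences in the results below was not tested.

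Promoters of 8 of the genes are shown first, because interferon acts through sequences in them. RefSeq windows (GRCm38.p6, from 250 bases before to 50 after a gene's start) were found for 29 of the 38 symbols. The ISRE core (TTTC, any 2 bases, then TTTC), read on both strands, occurred in 12 of these 29 genes (41.4%), against 3.99% of the 27025 genes with a window. The gamma-activated sequence TTCNNNGAA, a palindrome known from the response to interferon gamma, occurred in 7 of the 29 (24.1%), against 9.55% of all genes. The genes were listed as interferon-stimulated or antigen presentation genes, so these shares describe the list and not an effect of the knockout. Of the 12 genes with an ISRE core, 9 rose and 3 (B2m, Gbp3 and Rsad2) did not pass the test. Of all 29 genes with a window, 17 rose, where 12.7% of all tested genes rose. Of the 17 genes with a window that rose, 8 had no exact match to the core. Near matches were not searched for, so a gene without a match may still have such an element. In Bst2 and Ifitm3 matches of both kinds overlap. Capitals mark the matches in these promoters, each read 5′ to 3′ along its gene. The first 3 belong to antiviral genes that rose, Ifit3 (chr19:34583279-34583578, + strand), Isg15 (chr4:156200769-156201068, - strand) and Gbp2 (chr3:142620413-142620712, + strand).
Ifit3: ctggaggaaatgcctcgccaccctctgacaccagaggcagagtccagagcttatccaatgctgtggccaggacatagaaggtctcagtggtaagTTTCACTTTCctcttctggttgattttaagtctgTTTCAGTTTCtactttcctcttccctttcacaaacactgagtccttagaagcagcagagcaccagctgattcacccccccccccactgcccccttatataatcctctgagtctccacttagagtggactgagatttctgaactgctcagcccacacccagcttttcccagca
Isg15: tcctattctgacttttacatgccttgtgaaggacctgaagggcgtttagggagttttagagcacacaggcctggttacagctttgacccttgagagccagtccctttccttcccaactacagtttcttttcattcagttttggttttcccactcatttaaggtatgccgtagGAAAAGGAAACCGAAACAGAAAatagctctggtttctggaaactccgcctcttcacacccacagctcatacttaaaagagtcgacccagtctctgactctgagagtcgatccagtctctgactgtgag
Gbp2: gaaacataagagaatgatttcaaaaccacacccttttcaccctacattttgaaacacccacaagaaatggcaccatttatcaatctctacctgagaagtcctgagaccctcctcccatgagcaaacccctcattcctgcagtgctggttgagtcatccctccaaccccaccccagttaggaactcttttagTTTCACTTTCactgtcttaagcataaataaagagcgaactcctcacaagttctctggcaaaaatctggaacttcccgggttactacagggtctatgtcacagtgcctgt

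Ifit3 has a pair of ISRE cores that begin 156 and 122 bases before the start. Isg15 has 3 overlapping cores, the first of them 78 bases before the start, and Gbp2 has 1 core 59 bases before it. The next 2 promoters belong to the transcription factor gene Stat2 (chr10:128270248-128270547, + strand) and the RNA sensor gene Ddx58 (chr4:40239776-40240075, - strand), which also rose.
Stat2: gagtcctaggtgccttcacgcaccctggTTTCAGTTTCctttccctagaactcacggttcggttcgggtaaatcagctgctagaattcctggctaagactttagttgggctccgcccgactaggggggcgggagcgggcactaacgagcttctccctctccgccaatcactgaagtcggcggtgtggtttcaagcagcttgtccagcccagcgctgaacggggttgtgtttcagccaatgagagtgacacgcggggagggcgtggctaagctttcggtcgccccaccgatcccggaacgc
Ddx58: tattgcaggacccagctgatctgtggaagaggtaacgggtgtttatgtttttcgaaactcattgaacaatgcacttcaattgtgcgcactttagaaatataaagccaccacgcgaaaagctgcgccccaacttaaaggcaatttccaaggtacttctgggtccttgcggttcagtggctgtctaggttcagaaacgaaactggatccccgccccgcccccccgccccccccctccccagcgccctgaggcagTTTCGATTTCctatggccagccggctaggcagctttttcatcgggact

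The Stat2 core begins 222 bases before the start, and that of Ddx58 begins 2 bases after it. Neither motif occurs with its exact letters in the window of H2-K1 (chr17:34000298-34000597, - strand, the first of its 2 windows), which rose. The same holds for Oasl1 (chr5:114922990-114923289, + strand), the gene that fell. Near matches in these windows were not counted.
H2-K1: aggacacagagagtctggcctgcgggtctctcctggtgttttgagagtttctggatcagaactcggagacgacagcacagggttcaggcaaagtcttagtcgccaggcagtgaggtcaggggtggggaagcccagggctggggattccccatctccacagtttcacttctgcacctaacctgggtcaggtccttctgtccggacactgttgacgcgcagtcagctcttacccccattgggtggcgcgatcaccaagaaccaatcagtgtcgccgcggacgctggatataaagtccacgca
Oasl1: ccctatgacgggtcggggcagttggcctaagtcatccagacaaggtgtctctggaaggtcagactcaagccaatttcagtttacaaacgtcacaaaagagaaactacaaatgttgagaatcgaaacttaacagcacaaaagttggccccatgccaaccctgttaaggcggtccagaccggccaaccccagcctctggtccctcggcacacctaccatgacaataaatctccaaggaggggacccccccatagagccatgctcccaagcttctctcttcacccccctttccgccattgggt

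Tap1 (chr17:34187306-34187605, + strand) has no exact match either. In RefSeq, 225 bases lie between its start and that of Psmb9, which is read from the other strand, so that both genes share a promoter. Capitals here mark the bases between these RefSeq starts.
Tap1: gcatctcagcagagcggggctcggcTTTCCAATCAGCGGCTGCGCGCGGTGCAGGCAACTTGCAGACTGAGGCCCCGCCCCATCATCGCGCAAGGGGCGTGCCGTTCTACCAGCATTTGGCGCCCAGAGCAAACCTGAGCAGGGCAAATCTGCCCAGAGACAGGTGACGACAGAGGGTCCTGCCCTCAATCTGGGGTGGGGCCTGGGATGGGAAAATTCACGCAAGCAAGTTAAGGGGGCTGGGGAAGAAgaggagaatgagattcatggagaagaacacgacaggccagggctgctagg

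Of the 5 transcription factors on the list, 2 rose and 3 did not pass the test, where 12.7% of all tested genes rose. Stat2, which encodes a subunit of the complex that binds ISREs, had 26.1, 24.4 and 26.7 CPM in WT against 42.2, 40.1 and 41.5 in the knockout (replicates 1, 2 and 3 in this order, here and below). The libraries of each genotype lay close together and the genotypes did not overlap. This was the largest rise in the list, a log2 difference of 0.68 (adjusted p-value 1.74e-05 by edgeR, SE 0.069). Irf9, which encodes the DNA-binding subunit of the same complex, had 34.8, 32.6 and 28.4 CPM in WT against 27.6, 28.6 and 30.9 in the knockout. The ranges overlapped, and its log2 fold change was -0.14 (adjusted p-value 0.278 by edgeR, SE 0.087).

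Irf1, a transcription factor that activates MHC class I genes, had 17.2, 15.8 and 18.6 CPM in WT against 22.3, 22.8 and 23.04 in the knockout. All knockout libraries were above all WT libraries, with a log2 difference of 0.40 (adjusted p-value 0.00380 by edgeR, SE 0.083). Irf7, the factor that amplifies interferon production, had 6.85, 6.06 and 5.73 CPM in WT against 5.9, 6.68 and 7.43 in the knockout. The groups overlapped, and the log2 fold change was 0.11 (adjusted p-value 0.629 by edgeR, SE 0.14). Nlrc5, the transactivator that binds MHC class I promoters as part of a complex, had 6.29, 3.49 and 6.81 CPM in WT against 7.01, 8.19 and 9.06 in the knockout. The knockout libraries were all higher, but the WT libraries were spread, with replicate 2 lowest, and the log2 fold change was 0.52 (adjusted p-value 0.0684 by edgeR, SE 0.19). Without WT replicate 2 it was 0.32 (adjusted p-value 0.101 by edgeR), and without WT replicate 3 Nlrc5 passed at 0.0364. Nlrc5 passed in 4 of 13 alternative fits, the others being DESeq2, no low-count filter and the replicate number as a block.

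All 3 genes of RNA sensing rose, where 12.7% of all tested genes rose. Ddx58 (chr4:40203773-40239828 in GRCm38), which encodes RIG-I, the sensor of viral RNA ends, had 39.2, 27.7 and 34.0 CPM in WT against 47.7, 50.2 and 46.9 in the knockout. No knockout library fell within the WT range, which was wide, with replicate 2 lowest. The log2 fold change was 0.50 (adjusted p-value 0.00264 by edgeR, SE 0.10), and 0.39 (adjusted p-value 2.12e-04 by edgeR) without WT replicate 2. Ifih1 (chr2:62595798-62646255), which encodes MDA5, the sensor of long double-stranded RNA, had 26.2, 25.2 and 25.6 CPM in WT against 34.3, 30.4 and 32.4 in the knockout, with a log2 difference of 0.33 (adjusted p-value 0.00527 by edgeR, SE 0.074). Trim25, which encodes the ubiquitin ligase known to act with RIG-I, had 19.0, 17.6 and 19.8 CPM in WT against 27.2, 26.4 and 24.5 in the knockout, with a log2 difference of 0.46 (adjusted p-value 0.00116 by edgeR, SE 0.081). The WT libraries of these last genes varied little, and their genotypes were separate.

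The ubiquitin-like modifier ISG15 and the enzyme that removes it from proteins also rose at the RNA level. Usp18, which encodes that protease and also restrains the interferon receptor, had 9.49, 6.37 and 10.3 CPM in WT against 14.7, 15.6 and 12.6 in the knockout. WT replicate 2 was lowest and no libraries overlapped between genotypes. Its log2 fold change was 0.67 (adjusted p-value 0.00543 by edgeR, SE 0.15). Isg15 had 5.05, 5.36 and 3.46 CPM in WT against 6.02, 6.68 and 6.97 in the knockout, with a log2 difference of 0.52 (adjusted p-value 0.0397 by edgeR, SE 0.17). It was low, with 64 to 197 counts per library, and its call was lost without WT replicate 1 or 3 or any knockout library, with adjusted p-values from 0.05003 to 0.145 by edgeR.

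**Figure D2:**
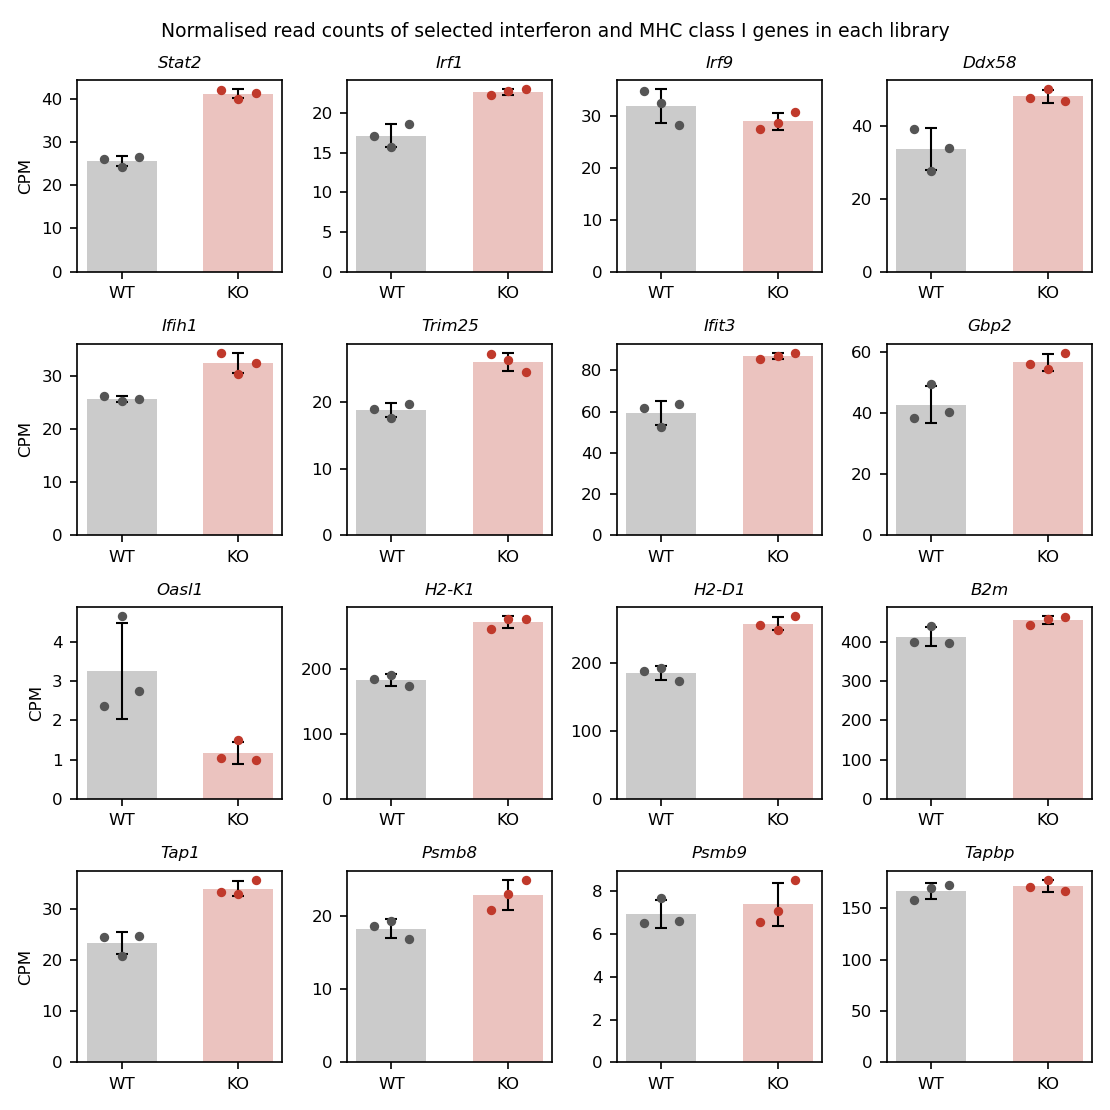
CPM (y axis, from 0) of 16 of the genes in the 3 WT and 3 Edf1 knockout libraries. Points are libraries in the order of their replicate numbers, bars are means and error bars are SDs (n = 3). Stat2, H2-K1, H2-D1 and Tap1 separate fully by genotype, Irf9, Psmb9 and Tapbp overlap, and Oasl1 is lower in every knockout library.

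Among the 17 tested effectors and other induced genes, 8 were higher, 1 was lower and 8 did not pass. Over all tested genes, 12.7% were higher and 14.2% were lower. The Ifit genes encode proteins that bind foreign RNA, and lie side by side on chromosome 19. Ifit3 (chr19:34583531-34588731) had 61.8, 52.6 and 63.6 CPM in WT against 85.4, 87.0 and 88.6 in the knockout. The knockout libraries were nearly equal and all above WT, with a log2 difference of 0.55 (adjusted p-value 9.69e-05 by edgeR, SE 0.070). Of the 31-base words in its transcript, 61.8% also occur in another gene, so its reads cannot be told with certainty from those of its near copy Ifit3b, which had a log2 difference of 0.40 (adjusted p-value 0.00756 by edgeR, SE 0.095). Ifit2 (chr19:34550694-34576419) had 96.4, 82.2 and 94.4 CPM in WT against 106, 103 and 104.6 in the knockout, with a log2 difference of 0.20 (adjusted p-value 0.0401 by edgeR, SE 0.065). Ifit1 (chr19:34640871-34650009) had 13.7, 10.0 and 10.4 CPM in WT against 13.7, 14.2 and 17.7 in the knockout, with a log2 difference of 0.41 (adjusted p-value 0.0444 by edgeR, SE 0.14), and here knockout replicate 1 lay within the WT range. The Ifit1 call was lost in all but 1 of the 6 fits that each left out a library, and the Ifit2 call in the 3 without a knockout library. Without WT replicate 2 the Ifit2 log2 fold change was 0.13 (adjusted p-value 0.0366 by edgeR).

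Oasl2 and Oasl1, neighbours on chromosome 5 that encode relatives of the oligoadenylate synthetases, moved in opposite directions. Oasl2 (chr5:114896936-114912234) had 18.3, 14.4 and 15.8 CPM in WT against 23.5, 20.4 and 22.8 in the knockout, with a log2 difference of 0.44 (adjusted p-value 0.00577 by edgeR, SE 0.10). Oasl1 (chr5:114923240-114937915), whose protein is known to restrain translation of Irf7, had 2.37, 4.66 and 2.76 CPM in WT against 1.04, 1.5 and 0.991 in the knockout. The raw values were 63, 60 and 51 counts in WT against 17, 27 and 28 in the knockout. Every knockout library was below every WT library, and WT replicate 2 was far above the other WT libraries. The log2 fold change was -1.43 (adjusted p-value 0.00416 by edgeR, SE 0.30), and -1.13 (adjusted p-value 0.00471 by edgeR) without WT replicate 2. Of their 31-base words, 0.14% (Oasl1) and 0.48% (Oasl2) occur in another gene.

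Of the remaining effectors, Gbp2, which encodes a guanylate-binding protein that attacks membranes around pathogens, had 38.2, 49.5 and 40.3 CPM in WT against 55.9, 54.3 and 59.7 in the knockout. Its log2 fold change was 0.42 (adjusted p-value 0.00344 by edgeR, SE 0.088), with WT replicate 2 the highest WT library. Gbp3 from the same family had 18.6 ± 0.893 CPM in WT against 20.4 ± 2.75 in the knockout (SD, n = 3) and a log2 difference of 0.14 (adjusted p-value 0.351 by edgeR, SE 0.10). Ifitm3, which encodes a membrane protein that blocks viral entry, had 101, 106 and 93.6 CPM in WT against 115, 119.5 and 119 in the knockout. Of its 31-base words, 20.5% occur in another gene. The shift was small and the genotypes were separate, with a log2 difference of 0.24 (adjusted p-value 0.0103 by edgeR, SE 0.059). Parp14, an ADP-ribosyltransferase gene, had 36.1 ± 5.87 CPM in WT against 46.8 ± 3.0 in the knockout (SD, n = 3), with a log2 difference of 0.36 (adjusted p-value 0.0178 by edgeR, SE 0.10). Bst2, which encodes tetherin, the protein that holds budding viruses on the cell, had 43.9 ± 3.67 CPM in WT against 51.1 ± 2.14 in the knockout (SD, n = 3), with a log2 difference of 0.22 (adjusted p-value 0.0397 by edgeR, SE 0.071). The Bst2 call was lost without WT replicate 3 or any knockout library, and that of Parp14 without knockout replicate 2 or 3.

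Of the 8 genes of this role that did not pass, 6 overlapped between genotypes. Rsad2 (viperin) had 3.16, 4.66 and 3.67 CPM in WT against 4.18, 3.45 and 3.82 in the knockout, with a log2 difference of 0.027 (adjusted p-value 0.933 by edgeR, SE 0.19). Its direction turned without WT replicate 1 (-0.11) or knockout replicate 1 (-0.035). Ifi27 had 76.9, 76.3 and 60.5 CPM in WT against 68.6, 75.0 and 74.0 in the knockout, with a log2 difference of 0.028 (adjusted p-value 0.840 by edgeR, SE 0.085), which turned to -0.075 without WT replicate 3. Ifi35, Xaf1, Rtp4 and Isg20 had log2 fold changes of 0.26, 0.19, 0.15 and 0.14, with adjusted p-values of 0.0960 to 0.692 by edgeR. Ifi44 was the only other tested effector below 0, at -0.26 (adjusted p-value 0.391 by edgeR, SE 0.21). For the remaining 2, Ifi35 and Xaf1, all knockout libraries lay above all WT libraries.

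For MHC class I, the heavy chains rose and the light chain did not pass the test. H2-K1 (chr17:33996017-34000347), which encodes a classical heavy chain, had 185, 190.2 and 173 CPM in WT against 262, 277 and 277 in the knockout. H2-D1 (chr17:35262730-35267499), the other classical heavy chain of this strain, had 188, 194 and 173 CPM in WT against 257, 249.5 and 269 in the knockout. Both were separated by genotype by a wide margin, with log2 fold changes of 0.57 (adjusted p-value 6.10e-06 by edgeR, SE 0.052) for H2-K1 and 0.48 (adjusted p-value 3.76e-05 by edgeR, SE 0.055) for H2-D1. Shared 31-base words make up 22.4% and 27.7% of their transcripts, so some reads of one heavy chain gene may have been counted for another. B2m (chr2:122147686-122153083), which encodes the light chain beta-2 microglobulin, had 400.2, 441 and 398 CPM in WT against 444, 458 and 463 in the knockout. All knockout libraries were above WT, by little, with a log2 difference of 0.14 (adjusted p-value 0.0571 by edgeR, SE 0.050). It passed the test in 6 of 13 alternative fits, with 0.19 (adjusted p-value 2.83e-04 by edgeR) without WT replicate 2.

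On a scale per transcript length (RPKM, CPM per kilobase of exon), B2m was also the highest gene of the list, with 480.3 ± 28.1 RPKM in WT against 529 ± 11.6 in the knockout (SD, n = 3). Ifitm3 followed with 148 ± 9.44 RPKM in WT against 174 ± 3.8 in the knockout. H2-D1 and H2-K1 came next, at 71.8 ± 4.02 RPKM in WT against 100.3 ± 3.88 in the knockout for H2-D1 and 62.2 ± 2.97 RPKM in WT against 92.5 ± 3.04 in the knockout for H2-K1. The heavy chains did not overlap each other in WT or in the knockout. Bst2, Ifi27 and Tapbp had WT levels of 48.7 ± 4.06, 48.5 ± 6.34 and 46.1 ± 2.1 RPKM (SD, n = 3), which do not differ beyond their spread. In WT, 11 of the 35 tested genes were above 10 RPKM and 3 were below 1 RPKM (Rsad2, Nlrc5 and Ifi44), around a median of 4.78 RPKM.

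**Figure D3:**
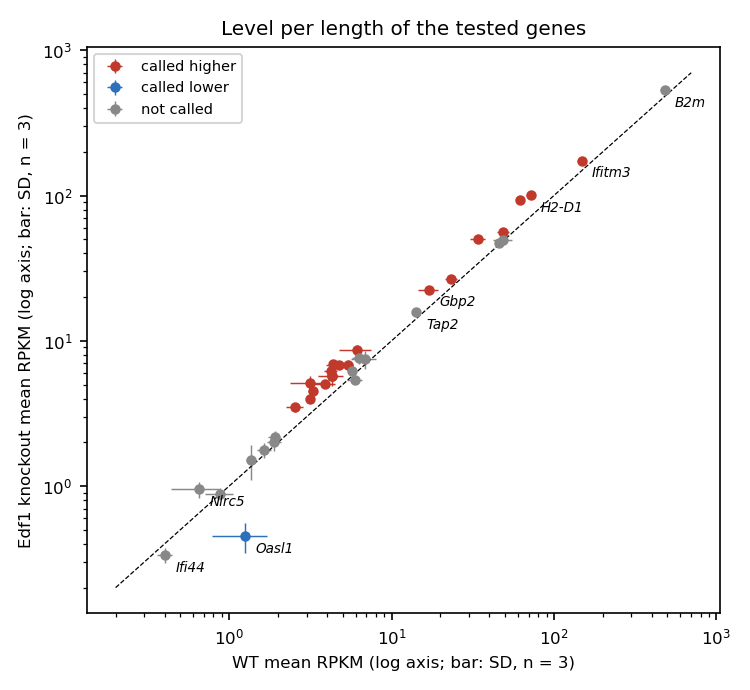
Mean RPKM in the Edf1 knockout (y axis) against WT (x axis) for the 35 tested genes, both on log axes, with SDs (n = 3). B2m is highest at 480 RPKM in WT, the 19 red points lie above the dashed line of equal levels, and Oasl1 lies below it.

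Of the 5 genes that supply peptides, 2 rose and 3 did not pass the test, where 12.7% of all tested genes rose. Tap1 and Tap2 encode the subunits of the transporter that carries peptides into the endoplasmic reticulum. Tap1 (chr17:34187553-34197225) had 24.4, 20.8 and 24.6 CPM in WT against 33.3, 32.9 and 35.6 in the knockout, with a log2 difference of 0.54 (adjusted p-value 3.94e-04 by edgeR, SE 0.082). Tap2 (chr17:34203527-34216321) had 54.5, 53.7 and 51.5 CPM in WT against 57.0, 59.0 and 63.6 in the knockout, with all knockout libraries above WT by a small margin and a log2 difference of 0.17 (adjusted p-value 0.0587 by edgeR, SE 0.062). Tap2 passed the test in 3 of 13 alternative fits, with 0.18 (adjusted p-value 0.0296 by edgeR) without WT replicate 2. Exons of other annotated genes cover 18.5% of the Tap2 exon bases on the opposite strand, and the sources used here do not give the strand setting of the counting. Tapbp, which encodes tapasin, the bridge between the transporter and MHC class I, had 158, 170.2 and 173 CPM in WT against 171, 178 and 167 in the knockout. The groups overlapped, with a log2 difference of 0.04 (adjusted p-value 0.623 by edgeR, SE 0.053), and 23.9% of its 31-base words occur in another gene. Exons of other annotated genes, on the same and the opposite strand, cover 29.0% of the Tapbp exon bases.

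Psmb8 and Psmb9 encode catalytic subunits of the immunoproteasome, the form of the proteasome that cuts peptides for MHC class I. Psmb8 (chr17:34197721-34201454) had 18.6, 19.3 and 16.9 CPM in WT against 20.8, 22.998 and 24.8 in the knockout, with a log2 difference of 0.33 (adjusted p-value 0.0171 by edgeR, SE 0.091), and its call was lost without WT replicate 3 and without either knockout replicate 2 or 3. Exons of another annotated gene cover 14.7% of the Psmb8 exon bases on the opposite strand. Psmb9 (chr17:34181987-34187764), which shares its promoter with Tap1, had 6.51, 7.69 and 6.59 CPM in WT against 6.58, 7.07 and 8.53 in the knockout. The groups overlapped and the log2 fold change was 0.12 (adjusted p-value 0.565 by edgeR, SE 0.14), which turned to -0.0059 without knockout replicate 3. In GENCODE M21, unlike in RefSeq, Psmb9 reaches base 34187764, past the Tap1 start at 34187553. Exons of Psmb9 and Tap1 there overlap on opposite strands over 5.79% of the Psmb9 exon bases.

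The immunoproteasome subunits replace standard subunits, and 2 of those 3 were lower in the knockout, against 14.2% of all tested genes. Psmb6 had 236, 285 and 227 CPM in WT against 185, 192 and 188 in the knockout, with a log2 difference of -0.40 (adjusted p-value 0.00146 by edgeR, SE 0.074). Psmb5 had 137 ± 20.6 CPM in WT against 113 ± 1.44 in the knockout (SD, n = 3), with a log2 difference of -0.27 (adjusted p-value 0.0322 by edgeR, SE 0.085), or -0.16 without WT replicate 2. Of the 31-base words of Psmb5, 74.0% occur in another gene, so its counts, and the ratio of Psmb8 to it, are uncertain. The Psmb5 call was lost without WT replicate 1 or any knockout library. Psmb7 had 215 ± 14.8 CPM in WT against 199.9 ± 8.68 in the knockout and a log2 difference of -0.11 (adjusted p-value 0.204 by edgeR, SE 0.058). The ratio of each immunoproteasome gene to its counterpart, taken within a library on RPKM, does not depend on scaling between libraries. The log2 ratio of Psmb8 to Psmb5 was -4.74, -4.96 and -4.73 in WT against -4.36, -4.22 and -4.08 in the knockout, a difference of 0.59. That of Psmb9 to Psmb6 was -6.15, -6.18 and -6.07 in WT against -5.78, -5.73 and -5.43 in the knockout, a difference of 0.49. That of Psmb10, the third immunoproteasome gene, to Psmb7 was -2.44, -2.39 and -2.54 in WT against -2.09, -2.31 and -2.15 in the knockout, a difference of 0.28. All 3 ratios were higher in every knockout library than in any WT library. The two-sided exact permutation p was 0.1 for each (also after Benjamini-Hochberg adjustment over the 3), the smallest that 3 against 3 libraries allow.

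Further ratios, picked after the gene values had been seen and therefore untested, set genes of 1 complex or promoter side by side. The log2 ratio of H2-K1 to B2m was -2.89, -2.99 and -2.97 in WT against -2.54, -2.50 and -2.51 in the knockout, and that of H2-D1 to B2m was -2.67, -2.77 and -2.78 in WT against -2.37, -2.46 and -2.37 in the knockout. The heavy chain RNAs were thus higher relative to the light chain in every knockout library, by 0.43 and 0.34 on the log2 scale. The mean log2 ratio of Tap1 to Tap2 was higher in the knockout by 0.38, and that of Tap1 to Psmb9 by 0.46. The widest gap was that of Stat2 to Irf9, with -0.56, -0.56 and -0.23 in WT against 0.48, 0.35 and 0.29 in the knockout. Stat2 was below Irf9 in every WT library and above it in every knockout library.

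**Figure D4:**
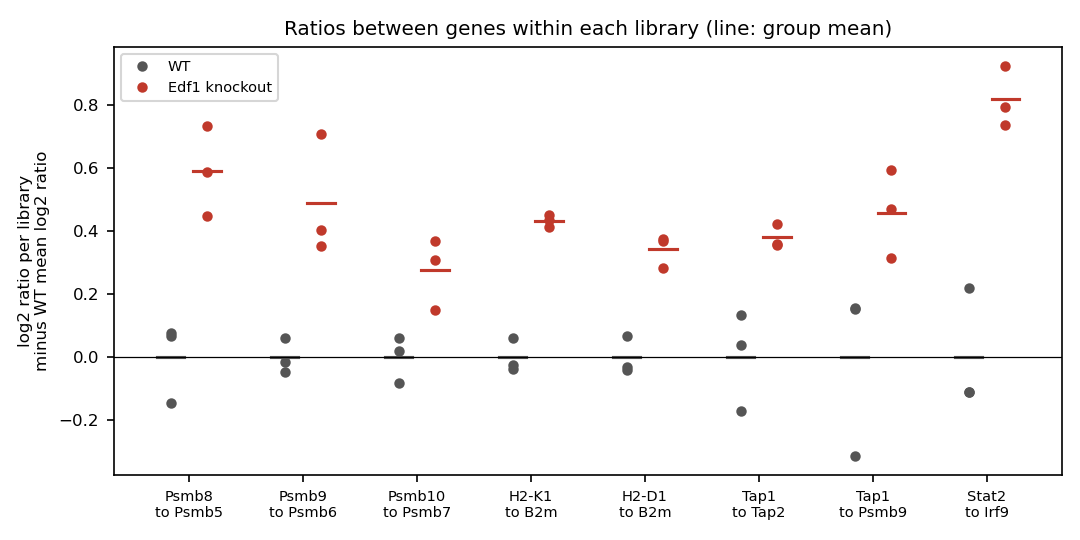
Log2 ratio between the named genes within each library, minus the WT mean (y axis), for 8 pairs. Points are the 3 WT and 3 Edf1 knockout libraries and short lines are group means. In each pair all knockout points lie above all WT points, most widely for Stat2 to Irf9 (0.82).

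Interferons themselves were near or under detection in both genotypes. None of 21 ligand genes had enough counts to be tested, 16 had no count in any library, and no ligand gene exceeded 8 counts in a library, which leaves changes in their RNA undetectable at this depth. Ifnb1, the gene for interferon beta, had 5, 3 and 5 counts in WT against 0, 5 and 2 in the knockout. The receptors and signalling genes were well detected, and of 18 tested 2 were higher, among them Socs3, and 2 lower (Ifngr1 and Ptpn6), a share near the 26.9% of all tested genes. Socs3, the gene of an inhibitor of this signalling, kept its call in 1 of the 6 fits that each left out a library, that without WT replicate 2, and Ifngr1 lost its call without knockout replicate 2. Ifnar1 and Ifnar2, the receptor for type I interferon, had log2 fold changes of 0.015 (adjusted p-value 0.883 by edgeR, SE 0.062) and -0.043 (adjusted p-value 0.753 by edgeR, SE 0.085). Ifngr1, a subunit of the receptor for interferon gamma, had 161 ± 6.19 CPM in WT against 139 ± 5.67 in the knockout (SD, n = 3), with a log2 difference of -0.22 (adjusted p-value 0.01002 by edgeR, SE 0.054). Ptpn6, which encodes a phosphatase of blood cells and microglia, had 56.8 ± 2.19 CPM in WT against 38.3 ± 1.26 in the knockout, with a log2 difference of -0.57 (adjusted p-value 2.63e-05 by edgeR, SE 0.061).

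Of 23 tested genes of nucleic acid sensing, 6 were lower and 2 higher, where 14.2% of all tested genes were lower and 12.7% higher. Tlr7 and Tlr8, receptors for single-stranded RNA in the endosome, had 57.5 ± 8.44 CPM in WT against 35.4 ± 2.51 in the knockout for Tlr7 and 11.9 ± 2.31 CPM in WT against 7.28 ± 0.262 in the knockout for Tlr8 (SD, n = 3). Their log2 fold changes were -0.70 (adjusted p-value 1.74e-04 by edgeR, SE 0.097) and -0.72 (adjusted p-value 0.00208 by edgeR, SE 0.14). Unc93b1, the chaperone of these receptors, had 61.4 ± 4.76 CPM in WT against 41.0 ± 2.88 in the knockout, with a log2 difference of -0.58 (adjusted p-value 9.95e-05 by edgeR, SE 0.074). Ikbke, Irf5 and Rnaseh2c were the other genes called lower, at -0.41, -0.31 and -0.45, with adjusted p-values of at most 0.0121 by edgeR. The Irf5 call was lost without knockout replicate 1 or 2, and 36.1% of the 31-base words of Rnaseh2c occur in another gene. Tlr3, the endosomal receptor for double-stranded RNA, was higher at 0.19 (adjusted p-value 0.0263 by edgeR, SE 0.058), as was Samhd1 at 0.24 (adjusted p-value 0.00781 by edgeR, SE 0.056). Tlr3 lost its call without WT replicate 1 and without either knockout replicate 1 or 3. The microglial markers had a median log2 fold change of -0.65, and their part in the falls of Tlr7, Tlr8, Unc93b1 and Ptpn6 was not tested.

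Other interferon-stimulated genes, not on the list of 38, had 20 higher and 3 lower of 57 tested, where 12.7% of all tested genes were higher, with a median log2 fold change of 0.24. The largest rises were in Cxcl10, a chemokine gene, with 3.39, 3.34 and 4.7 CPM in WT against 6.58, 7.96 and 12.8 in the knockout, and in Ifitm1, with 1.39, 1.16 and 1.73 CPM in WT against 2.95, 3.62 and 3.26 in the knockout. Their log2 fold changes were 1.29 (adjusted p-value 0.00163 by edgeR, SE 0.24) and 1.18 (adjusted p-value 0.00179 by edgeR, SE 0.22). Knockout replicate 3 was well above the other knockout libraries for Cxcl10, and without it the log2 fold change was 0.94. Ddx60, a helicase gene, rose by 0.99 (adjusted p-value 0.00219 by edgeR, SE 0.19), or 0.78 (adjusted p-value 8.50e-05 by edgeR) without WT replicate 2. The immunity-related GTPase gene Iigp1 rose by 0.91 (adjusted p-value 0.00494 by edgeR, SE 0.20). The 3 lower genes were Cmpk2 at -0.31, Lgals3bp at -0.35 and Ly6e at -0.23, with adjusted p-values of at most 0.0445 by edgeR. The Ly6e call was lost when any library other than WT replicate 2 was left out, by DESeq2, with the replicate block, without the low-count filter and with scaling on library size alone, with adjusted p-values up to 0.173.

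Among 15 other tested MHC class I genes and loading factors, 4 were higher and 1 lower, where 26.9% of all tested genes changed in either direction. H2-Q4, a nonclassical heavy chain gene, had 22.9, 21.7 and 20.0 CPM in WT against 39.3, 40.2 and 42.0 in the knockout, with a log2 difference of 0.91 (adjusted p-value 3.37e-06 by edgeR, SE 0.076), larger than that of either classical heavy chain. Of its 31-base words, 53.3% occur in another gene, so its counts may include reads of related heavy chains. H2-T22, Canx and Erap1 were the other genes called higher, at 0.32, 0.22 and 0.18, and Mr1 was lower at -0.20, with adjusted p-values of at most 0.0458 by edgeR. Of the 31-base words of H2-T22, 70.8% occur in another gene, and its call was lost without WT replicate 1 (adjusted p-value 0.0523 by edgeR). Erap1 lost its call without WT replicate 1 or any knockout library, and Mr1 without WT replicate 3 or any knockout library. Without WT replicate 2, 8 of the 15 were higher, and without WT replicate 1, 2 were. The MHC class II genes were low, with at most 212 counts in a library. Of 7 tested, none was higher and 2 were lower, where 14.2% of all tested genes were lower and 26.9% changed in either direction. The genes called lower were H2-DMa at -0.48 (adjusted p-value 0.0127 by edgeR, SE 0.13) and H2-Ob at -1.19 (adjusted p-value 0.0434 by edgeR, SE 0.40). The H2-Ob libraries overlapped between genotypes, and when any library other than WT replicate 2 was left out 1 class II gene was called. Ciita, the transactivator of class II genes, had 1.39, 1.24 and 0.919 CPM in WT against 2.27, 1.45 and 0.991 in the knockout and overlapped between genotypes.

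**Figure D5:**
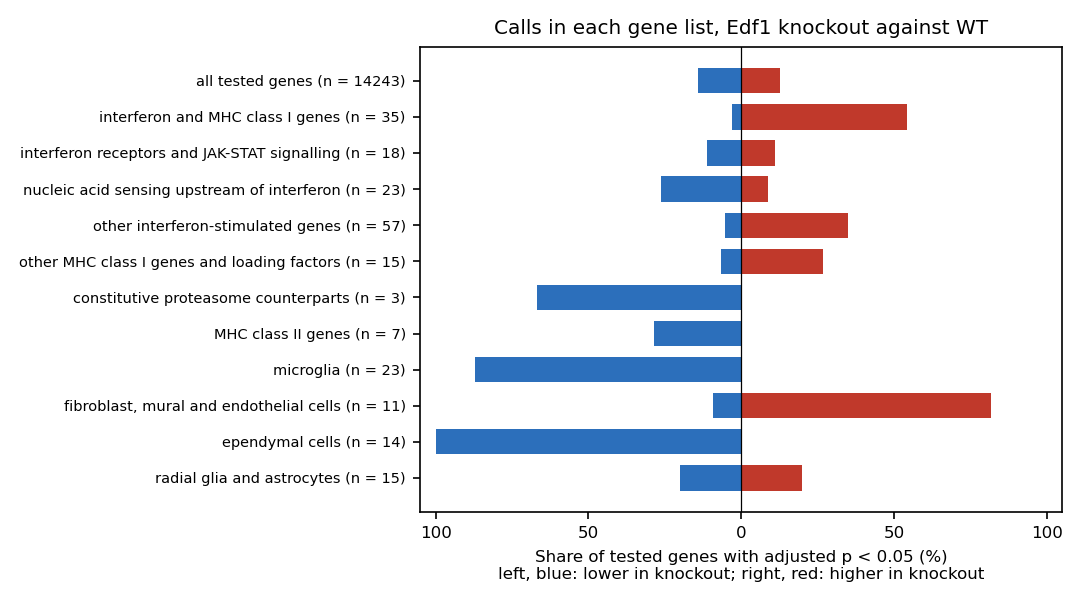
Share of the tested genes of each list (percent, x axis) called lower (left, blue) or higher (right, red) in the Edf1 knockout at an adjusted p-value under 0.05, with the number tested. Of the 35 interferon and MHC class I genes 19 are higher and 1 lower, against 12.7% and 14.2% of all 14243 tested genes, and microglial and ependymal markers are lower.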

How the data were processed

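The deposited table holds raw read counts per gene symbol for 6 libraries, as the whole numbers with unequal totals show. The submitters' processing notes list FastQC 0.11.2, cutadapt 1.11, HISAT2 2.1.0 and the build GRCm38. The counting program, annotation and use of strand are not given in the sources used here, so reads from near copies and overlapping genes cannot be assigned with certainty. Columns were matched to samples by genotype and replicate number.

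Counts were fitted in R 4.3.3 with edgeR 4.0.16 (filterByExpr, TMM, quasi-likelihood test, no covariate), with Benjamini-Hochberg adjustment over the 14243 tested genes and a threshold of 0.05. SE is the absolute log2 fold change over the square root of F. CPM uses TMM-scaled totals. RPKM divides by merged exon length and shared 31-base words come from GENCODE M21. Promoters come from RefSeq. Ratios were tested with scipy 1.17.1. The fit was tested on simulated data. Alternatives were DESeq2 1.42.0, limma 3.58.1 (voom), other scalings and filters, a stricter threshold, the replicate block and leaving out each library. Which cultures or mice gave the replicates is not stated, so p-values measure the spread between these samples.

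The genes and lists were chosen with earlier results of these data known. All 38 are accounted for by role. Library values are given for called genes with the largest change in each role, for those of highest level and for defining genes. Other genes named are the largest called changes or defining genes of their lists, and a few more were named after their values were seen. 1 gene of a list is not reported here by name.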

Additional observations from a re-analysis of the deposited data

How the results depend on the processing

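The count of genes of the list called higher (19) was 19 to 21 over other scalings, filters and tests, 21 with the replicate number as a block, 13 to 20 when each library was left out in turn, and 12 at an adjusted p-value under 0.01. The count called lower (1, Oasl1) was 0 with a filter on a mean of 50 counts, which removes Oasl1. Of the 19 genes, 13 were called in all 13 refits, and 6 (Ifit1, Ifit2, Bst2, Parp14, Isg15 and Psmb8) lost the call in some fits that left out a library. The median log2 fold change was 0.23 to 0.34. Over all genes, 3833 were called, 2213 at 0.01, 4065 with the block and 2658 to 4340 with a library left out. Same-numbered libraries deviated together with correlations of only 0.069, 0.060 and 0.037, so no pairing was assumed, and each library's highest correlation was with its own number.

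Direction reversed for genes that were not called: Rsad2 to -0.11 without WT replicate 1 and -0.035 without knockout replicate 1 (range -0.11 to 0.17 with a library left out), Ifi27 to -0.075 without WT replicate 3 (range -0.075 to 0.095) and Psmb9 to -0.0059 without knockout replicate 3 (range -0.0059 to 0.19). The cause was not tested. Other interferon-stimulated genes called higher went from 20 to 12 at 0.01 and were 14 to 20 with a library left out. Small lists moved by single genes. Signalling genes called higher (2) were 1 by DESeq2, 0 at 0.01 and 0 to 1 with a library left out, and those called lower (2) were 1 at 0.01 and 1 to 2 with a library left out. Sensing genes called higher (2) were 1 at 0.01 and 1 to 2 with a library left out. Other MHC class I genes called higher (4) were 2 to 8 with a library left out, and those called lower (1) were 0 without the low-count filter, by DESeq2, with the block and at 0.01, and 0 to 1 with a library left out. Standard proteasome genes called lower (2) were 1 at 0.01 and 1 to 2 with a library left out. MHC class II genes called lower (2) were 1 without the low-count filter, with a mean of 50 counts, by DESeq2 and with the block, 0 at 0.01, and 1 to 2 with a library left out. The ISRE count in promoters was 7 of 29 from 100 bases before to 50 after the start, against 1.69% of all genes. The differences in the 3 proteasome ratios ran from 0.52 to 0.66, 0.38 to 0.56 and 0.23 to 0.34 with a library left out.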
